A study of Mus musculus with 12 samples.

Results

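The genes described here lie in a 6 Mb stretch of mouse chromosome 2, with starts from 117121374 (Spred1) to 122765237 (Sqor) on GRCm38. The segment was chosen by measured values of these same libraries: genes whose FPKM (fragments per kilobase, a level scaled to the length of the gene and to the mapped reads of the library) differed between the Slit2-Tg and C57BL/6J lines clustered in it. Every gene starting in the segment with at least 1 nonzero FPKM was taken as a member, apart from B2m and Thbs1. This gave 130 of the 28242 genes with any value above 0, and 109 of the 130 are protein coding. A further 47 genes annotated in the segment were at 0 in every library. Because the difference between the lines chose the segment, that difference is described below without any test. The change with ischemia–reperfusion (IR) played no part in the choice and was tested.

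RNA was measured in 12 libraries of tissue from hearts perfused outside the body on a Langendorff apparatus. The methods name heart tissues without giving the part used for RNA sequencing. C57BL/6J hearts without (C57-non-IR) and with IR (C57-IR) and Slit2-Tg hearts without (Slit2-non-IR) and with IR (Slit2-IR) made 4 groups of 3, and values by group are given in this order. In IR hearts, 20 min of stable perfusion were followed by 20 min in which flow was stopped to the whole heart and by 40 min of renewed flow. Hearts without IR were perfused for 80 min without a break. C57BL/6J mice carried no transgene. Slit2-Tg mice carried a full-length human Slit2 cDNA behind the CMV promoter, which is active in many cell types, and all animals were males of 3 to 5 months. The transgene was injected into oocytes of C57 × CBA F1 mice, C57BL/6J is named as the background strain, and the number of backcross generations is not given in the sources used here. The labels give the genotype. The IR state was read from the second letter of each title against the 4 groups of the methods, and the labels do not say how the hearts of a group relate to each other, so p-values measure the spread between these hearts.

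The libraries held 16601154 to 24841291 reads on genes. The mitochondrial share of these differed with line, at 23.87% to 25.98% in the 6 C57BL/6J libraries and 19.73% to 23.78% in the 6 Slit2-Tg libraries, which did not overlap. The 5 cardiomyocyte markers had a value in every library and summed to 8288 to 12250 FPKM, and the 5 endothelial markers summed to 111 to 174 FPKM. Slit2-IR replicate 1 stood apart with 7 atrial markers summing to 1758 FPKM, against at most 246 FPKM in the other libraries, and Slit2-non-IR replicate 2 with 3 red cell markers summing to 43.1 FPKM, against at most 13.1 FPKM elsewhere. The mouse Slit2 gene (chromosome 5) averaged 0.195, 0.243, 0.178 and 0.350 FPKM in the 4 groups, with the last mean set by 1 library at 0.813 FPKM. The transgene is a human cDNA, so this row does not check the genotype labels.

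Neighbouring genes on a chromosome are inherited together, in blocks that crossing over shortens. Such a block can hold genes of unrelated function. The segment is a window set by coordinates, and whether it is such a block was not tested. The segment holds the assembly factor Ndufaf1 of mitochondrial complex I, the leucine-degrading enzyme Ivd and the Notch ligand Dll4 of the vascular endothelium. It also holds the endoplasmic reticulum chaperone Pdia3, and Rasgrp1, an exchange factor that activates RAS in lymphocytes.

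The reference sequence upstream of the 4 genes whose libraries did not overlap between lines is shown because it is the DNA nearest to the start of each transcript, and the window of Slc28a2 is added because that gene is a close relative of Gm14085. Each run is the 250 bases before the start of transcription, 5′ to 3′ on the strand of the gene, from RefSeq on GRCm38.p6. RefSeq names Casc4 Golm2 and Gm14085 Slc28a2b. Capitals mark the letters CCAAT and GGGCGG read on either strand. The letters TATAAA, searched in the same way, were in none of these 5 windows. This assembly is of C57BL/6J, and no sequence of the Slit2-Tg line was read.

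Ndufaf1, chr2:119662835-119663084, - strand: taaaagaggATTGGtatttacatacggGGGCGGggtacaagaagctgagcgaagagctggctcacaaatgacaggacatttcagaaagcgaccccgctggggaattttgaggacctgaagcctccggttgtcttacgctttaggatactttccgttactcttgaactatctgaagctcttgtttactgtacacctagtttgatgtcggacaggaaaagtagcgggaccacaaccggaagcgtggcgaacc
Casc4, chr2:121866720-121866969, + strand: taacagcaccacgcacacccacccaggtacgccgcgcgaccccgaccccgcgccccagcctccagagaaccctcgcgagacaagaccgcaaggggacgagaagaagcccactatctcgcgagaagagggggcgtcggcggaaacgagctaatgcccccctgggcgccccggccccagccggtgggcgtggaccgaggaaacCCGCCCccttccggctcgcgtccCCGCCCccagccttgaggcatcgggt
Itpka, chr2:119742087-119742336, + strand: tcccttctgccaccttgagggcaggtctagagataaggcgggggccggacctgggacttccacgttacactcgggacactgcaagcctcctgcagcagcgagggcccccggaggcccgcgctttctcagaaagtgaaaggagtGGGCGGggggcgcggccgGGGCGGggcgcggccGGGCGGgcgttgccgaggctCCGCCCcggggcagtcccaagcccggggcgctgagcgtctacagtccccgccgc
Gm14085, chr2:122484691-122484940, + strand: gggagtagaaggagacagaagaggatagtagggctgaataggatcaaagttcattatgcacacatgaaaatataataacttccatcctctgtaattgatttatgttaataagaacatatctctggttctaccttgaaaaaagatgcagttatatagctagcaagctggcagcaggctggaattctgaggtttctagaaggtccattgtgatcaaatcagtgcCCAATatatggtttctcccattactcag
Slc28a2, chr2:122426185-122426434, + strand: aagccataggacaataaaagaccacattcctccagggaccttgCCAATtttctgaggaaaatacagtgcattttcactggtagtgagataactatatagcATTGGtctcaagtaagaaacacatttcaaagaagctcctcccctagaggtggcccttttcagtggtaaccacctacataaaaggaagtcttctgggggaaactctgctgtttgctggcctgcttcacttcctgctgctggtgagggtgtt

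The window of Ndufaf1 held 1 match to CCAAT and 1 to GGGCGG and was 49.2% G and C. Those of Casc4 and Itpka held 2 and 4 matches to GGGCGG, with 71.2% and 72.8% G and C and 29 and 26 CpG dinucleotides. The windows of Gm14085 and Slc28a2 held CCAAT once and 2 times, no GGGCGG and no CpG dinucleotide. The longest stretch these last 2 windows had in common was 8 bases. RefSeq had a window for 85 of the 92 members that passed the filter on low values (below). Of these, 60.0% held GGGCGG, 37.6% CCAAT and 2.35% TATAAA, against 57.5%, 35.6% and 6.64% of 10758 tested genes of the genome, and 32.7%, 33.8% and 12.4% of all 32851 windows of the table. The median member window was 61.2% G and C, against 59.6% for tested genes.

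The members are a small and steady part of the heart's RNA. They took 0.316% to 0.387% of the reads on genes, and 106 to 114 of the 130 had a read in any one library. A filter on low values asked for an FPKM worth 10 reads at the median depth in 3 libraries or more, and for 15 reads in all. It left 92 members, which were fitted with the 15240 genes of the genome that passed this filter. The other 38 members, 23 of them protein coding, had 1 to 83 reads over the 12 libraries together and at most 0.561 FPKM on average. The filter did not use the group labels, yet Rasgrp1 and AA467197 reached its 10 reads only in libraries after IR. Among the tested members 14 averaged 10 FPKM or more, 53 lay between 1 and 10 FPKM, and 25 were under 1 FPKM. The median member averaged 2.42 FPKM, against 3.00 FPKM for all tested genes.

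**Figure D1:**
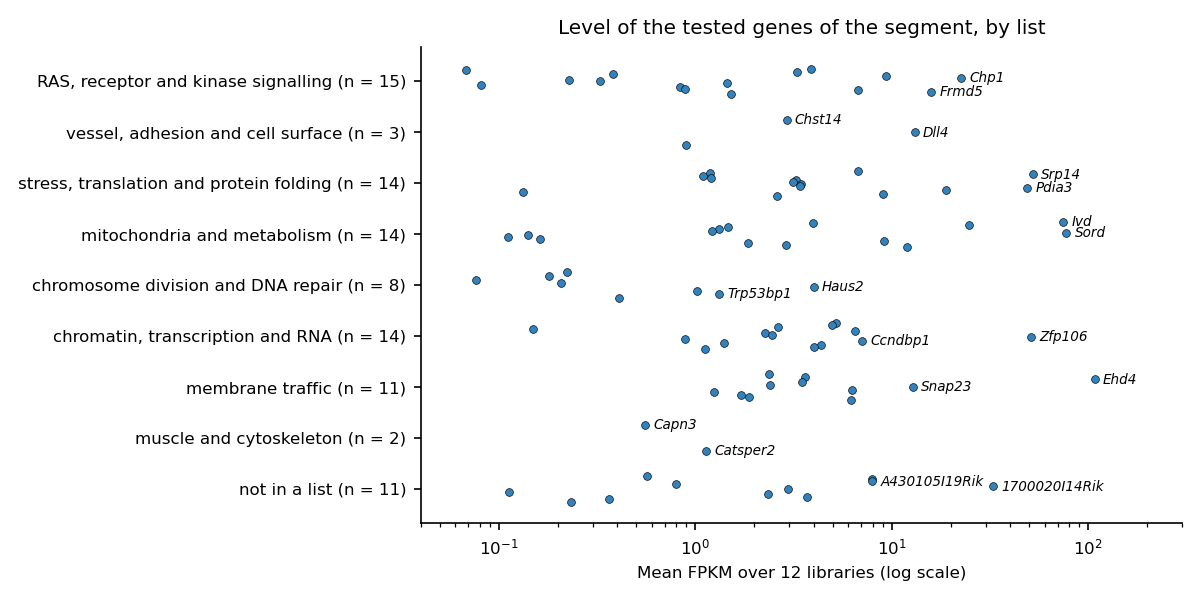
Mean FPKM over 12 libraries (log axis) of the 92 tested genes of the segment, 1 point a gene, in lists by known role. Ehd4 was highest at 107.9 FPKM, and the lists of metabolism and of translation and folding each held 2 genes of about 50 FPKM or more.

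The level of the members followed no single role. Ehd4, an ATPase of endosome recycling, was the most abundant at 107.9 FPKM, and the SNARE protein Snap23 followed among the 11 genes of membrane traffic with 12.8 FPKM. Of the 14 genes of mitochondria and metabolism, Sord, which converts sorbitol to fructose, averaged 77.4 FPKM and Ivd 74.5 FPKM. Of the 14 genes of stress, translation and folding, Srp14 of the signal recognition particle averaged 52.1 FPKM and Pdia3 48.7 FPKM. Zfp106, an RNA-binding zinc finger protein, reached 51.1 FPKM and Ccndbp1, which binds cyclin D, 7.08 FPKM, the highest of the 14 genes of chromatin, transcription and RNA. The 15 genes of RAS, receptor and kinase signalling were led by Chp1, a cofactor of sodium–proton exchangers, at 22.6 FPKM and Frmd5 at 15.9 FPKM. Genes of cell division were low, with Haus2 of the augmin complex at 3.999 FPKM and the DNA repair protein Trp53bp1 at 1.32 FPKM on top of 8. Dll4 averaged 13.1 FPKM and Chst14, an enzyme of dermatan sulfate, 2.91 FPKM. Of the muscle list, Catsper2, known as a sperm calcium channel subunit, averaged 1.13 FPKM and the muscle protease Capn3 0.554 FPKM. Sequence shared with other genes was common: in 15 of the 92, over 20% of the 75-base words of their transcripts also occur in transcripts of other genes, and 36 overlap an annotated gene of the opposite strand, while the sources used here do not say whether strand was used in counting.

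The first comparison asks how the levels of the members differed between the lines. Ndufaf1 and Casc4 were lower, and Itpka and Gm14085 higher, in all 6 Slit2-Tg libraries than in all 6 C57BL/6J libraries. These were 4 of 92 tested members (4.35%), and 0.413% of all tested genes had libraries that did not overlap in this way. The segment was chosen on line differences in these libraries, so a larger share among members was built in. Itpka and Gm14085 met the filter of 10 reads in 0 of the 6 C57BL/6J libraries and in 4 and 6 of the 6 Slit2-Tg libraries, so both entered the count only through the line in which they were higher. Ndufaf1 and Casc4 met it in all 12 libraries. The mitochondrial share of reads separated the lines in the same way, and its part in these differences was not tested. Ndufaf1 and Itpka start near 119.66 and 119.74 Mb, Casc4 near 121.87 Mb and Gm14085 near 122.48 Mb.

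**Figure D2:**
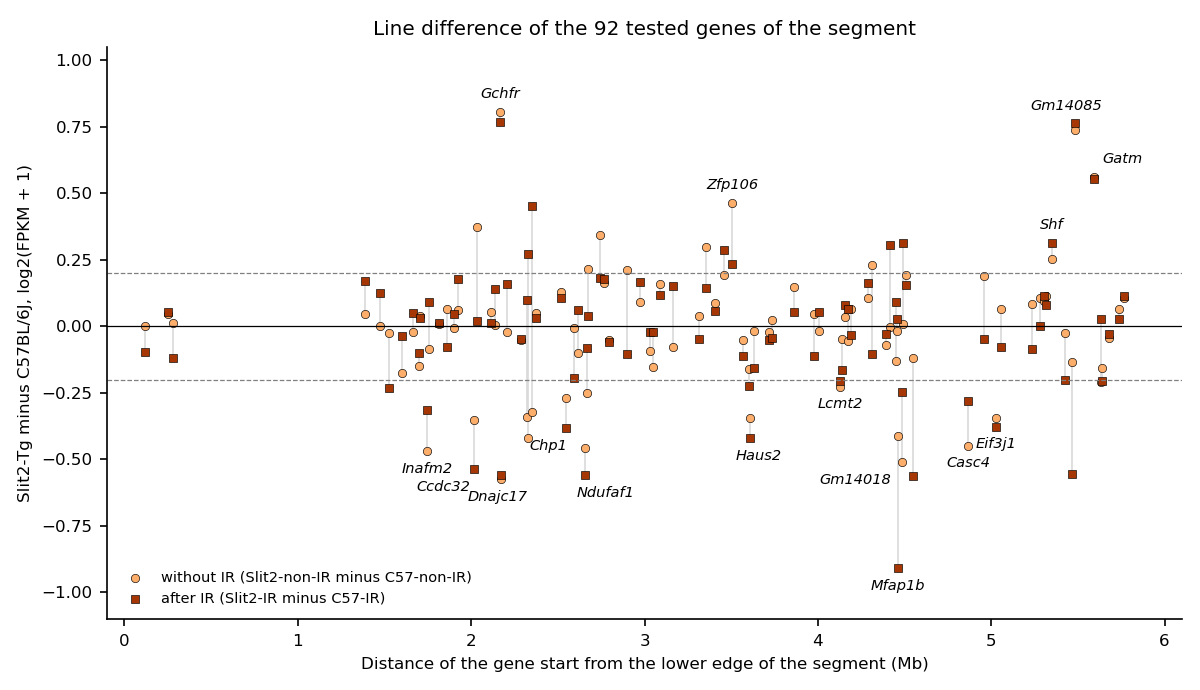
Difference between Slit2-Tg and C57BL/6J hearts on the log2(FPKM + 1) scale for the 92 tested genes, without IR (circles) and after IR (squares), against the distance of the gene start from the lower edge of the segment. Dashed lines mark differences of 0.2, and the 16 genes past them on the same side in both conditions are named, 11 lower and 5 higher in Slit2-Tg.

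Ndufaf1 (ENSMUSG00000027305, chromosome 2, 119655446 to 119662827, minus strand) is needed to assemble complex I of the respiratory chain. Its FPKM was 30.0, 29.5 and 28.2 in C57-non-IR, 33.5, 27.1 and 26.9 in C57-IR, 22.1, 21.4 and 19.6 in Slit2-non-IR, and 19.3, 23.2 and 16.2 in Slit2-IR hearts. The highest Slit2-Tg library was thus under the lowest C57BL/6J library, with a wider spread after IR than before. The means over 6 libraries were 29.2 ± 2.4 and 20.3 ± 2.5 FPKM (SD, n = 6 each), a ratio of 0.696, resting on 541 to 955 reads per library. On the log2(FPKM + 1) scale, on which all differences below are given, Slit2-Tg differed from C57BL/6J by -0.46 without IR and -0.56 after IR. None of the 75-base words of its transcripts occurred in another gene. In heart tissue of mixed cells, fewer cells of a type and less RNA per cell cannot be told apart.

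Casc4 (ENSMUSG00000060227, chromosome 2, 121866970 to 121936220, plus strand) gave 1.76, 2.22 and 2.23 FPKM in C57-non-IR, 2.36, 1.81 and 1.94 in C57-IR, 1.15, 1.14 and 1.46 in Slit2-non-IR, and 1.70, 1.69 and 1.13 in Slit2-IR hearts. The gap between the lines was narrow, since 1.70 FPKM in Slit2-Tg lay next to 1.76 FPKM in C57BL/6J. The means were 2.05 ± 0.25 and 1.38 ± 0.27 FPKM (SD, n = 6 each), and the differences were -0.45 without IR and -0.28 after IR. With each library rescaled to a common sum (TPM, which also corrects for gene length), Casc4 overlapped between the lines, Tmem87a, Zfp106 and Gatm did not, and the count became 5 higher and 1 lower. This scaling multiplies all genes of a library by 1 factor: the median difference of all tested genes between lines went from 0.00 to 0.08, and 122 of them were higher and 11 lower without overlap (0.873%), against 36 and 27 before.

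Itpka (ENSMUSG00000027296, chromosome 2, 119742337 to 119751263, plus strand) phosphorylates inositol trisphosphate, which releases calcium from stores. It was low throughout, with 0.129, 0.0765 and 0.127 FPKM in C57-non-IR, 0.0945, 0.0836 and 0.171 in C57-IR, 0.451, 0.477 and 0.304 in Slit2-non-IR, and 0.352, 0.229 and 0.222 in Slit2-IR hearts. These values rest on 24 reads in the 6 C57BL/6J libraries together, 3 to 7 in each, and on 83 reads in the 6 Slit2-Tg libraries, 9 to 20 in each. The Slit2-IR libraries lay nearer to C57BL/6J than 2 of the 3 Slit2-non-IR libraries did. The means were 0.114 ± 0.036 and 0.339 ± 0.108 FPKM (SD, n = 6 each).

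Gm14085 (ENSMUSG00000079071, chromosome 2, 122484941 to 122528040, plus strand), a second gene of the Slc28a2 family of sodium-driven nucleoside transporters, was close to absent from C57BL/6J hearts. It had 4 reads in the 6 C57BL/6J libraries together, at most 2 in any one, and 486 reads in the 6 Slit2-Tg libraries, 36 to 144 in each. The FPKM was 0, 0 and 0.0231 in C57-non-IR, 0.0115, 0.0101 and 0 in C57-IR, 0.859, 0.685 and 0.514 in Slit2-non-IR, and 0.355, 0.607 and 1.29 in Slit2-IR hearts. No C57BL/6J library came near any Slit2-Tg library, and the spread among Slit2-IR hearts was the widest of the 4 groups. Its neighbour Slc28a2, which shares 21.6% of the 75-base words of Gm14085, averaged 9.43 ± 1.34 FPKM in C57BL/6J and 8.84 ± 2.42 FPKM in Slit2-Tg hearts (SD, n = 6 each). Gm14085 made up 0% to 0.311% of the summed FPKM of the pair in C57BL/6J libraries and 5.42% to 11.6% in Slit2-Tg libraries.

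**Figure D3:**
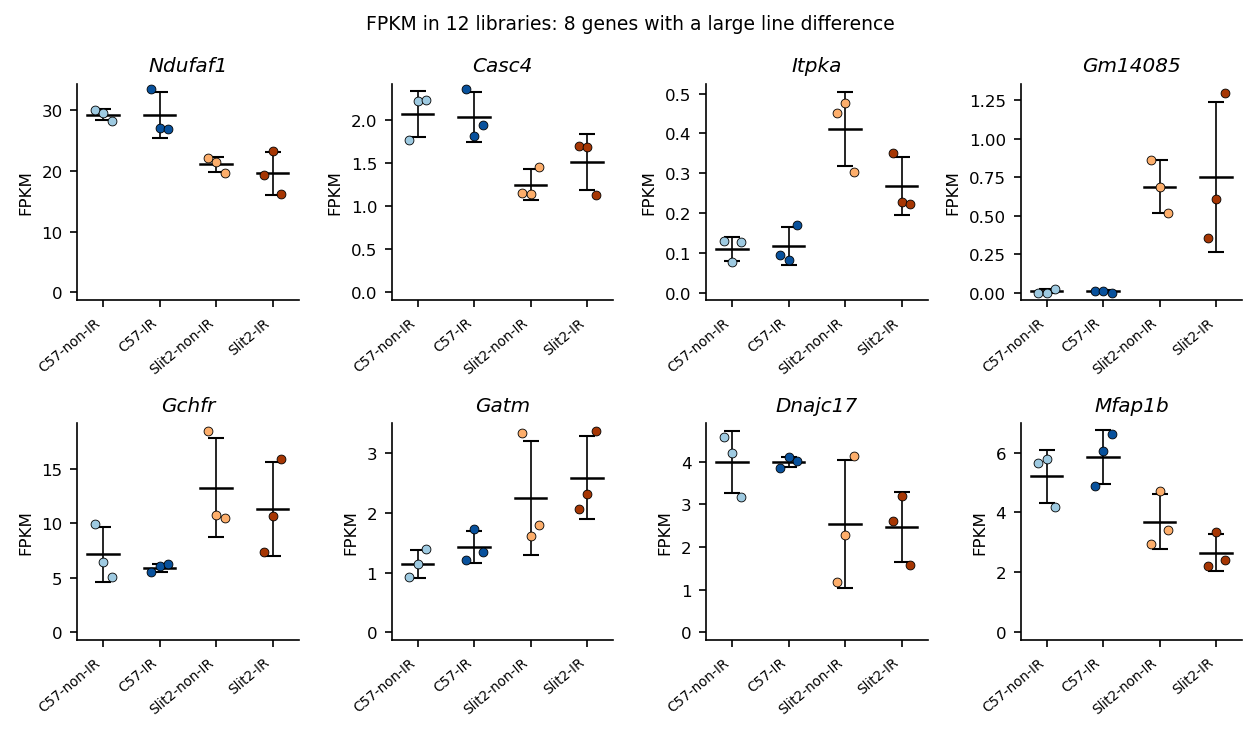
FPKM in each of the 12 libraries for 8 genes of the segment (points; bar, mean; whiskers, SD over 3 hearts). The 6 Slit2-Tg libraries lie apart from the 6 C57BL/6J libraries for Ndufaf1, Casc4, Itpka and Gm14085, and overlap them for Gchfr, Gatm, Dnajc17 and Mfap1b.

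Beyond these 4, several members differed in the same direction in both conditions while single libraries overlapped. A difference of at least 0.2 without IR and again, in other hearts, after IR was met by 16 of 92 tested members (17.4%). Over all tested genes the share was 3.28%, and the bound was set after the values were seen. As line differences in both sets of hearts could enter the choice of the segment, a larger share among members was built in. Higher in Slit2-Tg were Gchfr, Zfp106, Shf, Gm14085 and Gatm. Lower were Inafm2, Ccdc32, Dnajc17, Chp1, Ndufaf1, Haus2, Lcmt2, Mfap1b, Gm14018, Casc4 and Eif3j1. Of the 75-base words of Eif3j1, 47.3% occur in other genes, 35% in Eif3j2, and 45.7% of those of Gm14018 occur in Wdr76. How reads were divided between these genes is not shown by the deposited values. Gchfr, Gatm, Dnajc17 and Mfap1b are described below for the size of this difference and were likewise picked after their values were seen.

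Gchfr, the protein that inhibits GTP cyclohydrolase and so tetrahydrobiopterin synthesis, gave 9.92, 6.46 and 5.02 FPKM in C57-non-IR, 5.51, 6.05 and 6.21 in C57-IR, 18.5, 10.8 and 10.5 in Slit2-non-IR, and 7.33, 10.6 and 15.9 in Slit2-IR hearts. Slit2-IR replicate 1, the library rich in atrial markers, was its only Slit2-Tg library below the highest C57BL/6J value, and C57-non-IR replicate 1 at 9.92 FPKM was the only C57BL/6J library above that 7.33 FPKM. Gatm, the enzyme of the first step of creatine synthesis, gave 0.919, 1.14 and 1.39 FPKM in C57-non-IR, 1.203, 1.72 and 1.35 in C57-IR, 3.34, 1.60 and 1.79 in Slit2-non-IR, and 2.07, 2.31 and 3.38 in Slit2-IR hearts. Its overlap came from Slit2-non-IR replicate 2, the library rich in red cell markers, at 1.60 FPKM and C57-IR replicate 2 at 1.72 FPKM. Both genes averaged 1.88 times their C57BL/6J mean in Slit2-Tg. Without both of these libraries, an alternative chosen after the data were seen, 11 members did not overlap, 6 higher (Gchfr, Itpka, Tmem87a, Capn3, Gm14085 and Gatm) and 5 lower (Ndufaf1, Lcmt2, Mfap1b, Casc4 and Eif3j1) in Slit2-Tg, and so did 0.820% of all tested genes. Since these libraries held the overlaps of Gchfr and Gatm, a rise was built into leaving them out. The part of atrial tissue and blood in these values was not tested.

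Zfp106 was the most abundant member with such a difference. It averaged 43.1 ± 1.9, 46.4 ± 6.7, 60.5 ± 10.7 and 54.5 ± 4.0 FPKM in the 4 groups (SD, n = 3 each), and Gm26899, a gene on the opposite strand within it, shares 23.9% of its 75-base words. Chp1 averaged 24.0 ± 3.4, 26.4 ± 0.7, 19.7 ± 2.7 and 20.1 ± 1.9 FPKM. Haus2 averaged 4.42 ± 0.58, 4.86 ± 0.78, 3.32 ± 0.83 and 3.39 ± 0.71 FPKM. Dnajc17, a J-domain protein, was near 3.99 FPKM in both C57BL/6J groups and at 2.54 ± 1.495 and 2.46 ± 0.82 FPKM in Slit2-non-IR and Slit2-IR hearts, with Slit2-non-IR replicate 3 at 4.14 FPKM and Slit2-IR replicate 2 at 3.21 FPKM inside the C57BL/6J range of 3.18 to 4.58 FPKM.

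Mfap1b and Mfap1a encode nearly the same spliceosome protein, and 59.1% of the 75-base words of Mfap1b also occur in Mfap1a, so reads may be divided between them in ways that the deposited values do not show. Mfap1b gave 5.64, 5.80 and 4.18 FPKM in C57-non-IR, 4.87, 6.05 and 6.63 in C57-IR, 2.94, 4.71 and 3.42 in Slit2-non-IR, and 2.21, 3.36 and 2.42 in Slit2-IR hearts. It was 59.8% ± 5.3 of the sum of both genes in C57BL/6J and 42.4% ± 7.7 in Slit2-Tg libraries (SD, n = 6 each). The sum itself was 9.20 ± 0.78 FPKM in C57BL/6J and 7.50 ± 1.65 FPKM in Slit2-Tg libraries, with ranges of 8.22 to 10.3 and 5.63 to 10.2 FPKM that overlapped.

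The 16 genes were spread over the segment. In successive windows of 1 Mb from its lower edge they were 0 of 3, 1 of 13, 5 of 24, 2 of 17, 4 of 19 and 4 of 16 tested members. The median size of the mean difference between lines, whatever its sign, was 0.099 over the 92 members, 0.058 over all tested genes, 0.057 over the 1088 tested genes of the rest of chromosome 2, 0.038 over 19 tested genes of the 6 Mb before the segment and 0.054 over 47 of the 6 Mb after it. The signed median was 0.00 over the members, with 48 of 92 above 0. Over the 92 members the differences without and after IR, which share no libraries, had a Pearson correlation of 0.687. Over all tested genes it was 0.313, and both are given as a description of genes that are not independent. Because line differences in these libraries chose the segment, a larger correlation and larger median size than elsewhere were built in.

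The values at the edges of the segment were as follows. Just inside the lower edge, Spred1, an inhibitor of RAS–MAP kinase signalling, differed between the lines by 0.00 without IR and -0.10 after IR, and Fam98b by 0.05 and 0.05. The nearest tested genes below that edge, 2700033N17Rik at 116.07 Mb and Gm13991 at 116.53 Mb, differed by -0.06 and -0.13, and by 0.07 and -0.05. Just inside the upper edge, Bloc1s6 differed by 0.07 and 0.03 and Sqor, which oxidizes sulfide in mitochondria, by 0.11 and 0.11. The nearest tested genes above it, Sema6d at 124.09 Mb and Myef2 at 125.08 Mb, differed by 0.11 and 0.11, and by -0.15 and 0.05. Of 47 tested genes of the 6 Mb after the segment, 1 did not overlap between lines (2.13%), against 0.413% of all tested genes. A difference of at least 0.2 the same way in both conditions was met by 2 of the 47 (4.26%), against 3.28%. In the 6 Mb before the segment, 0 of 19 met either.

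The change with IR was tested in limma on all 15240 genes, as the mean of the changes in both lines. Ccdc32 was the only member to pass an adjusted p of 0.05, and it fell. This was 1 of 92 members (1.09%), against 3.49% of all tested genes. At an unadjusted p under 0.05, 5 members (5.43%) were higher and 9 (9.78%) lower after IR, against 7.93% and 7.97% of all tested genes, so the members' share was near that of the genome in both directions. Of the 5 higher members, Rasgrp1 and AA467197 passed the filter only through IR libraries. The median change was 0.02 over the members and 0.00 over all tested genes, and the median size of a change was 0.065 and 0.079. The members, which leave out Thbs1, ranged from -0.33 to 0.48, and all tested genes from -1.85 to 6.91.

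**Figure D4:**
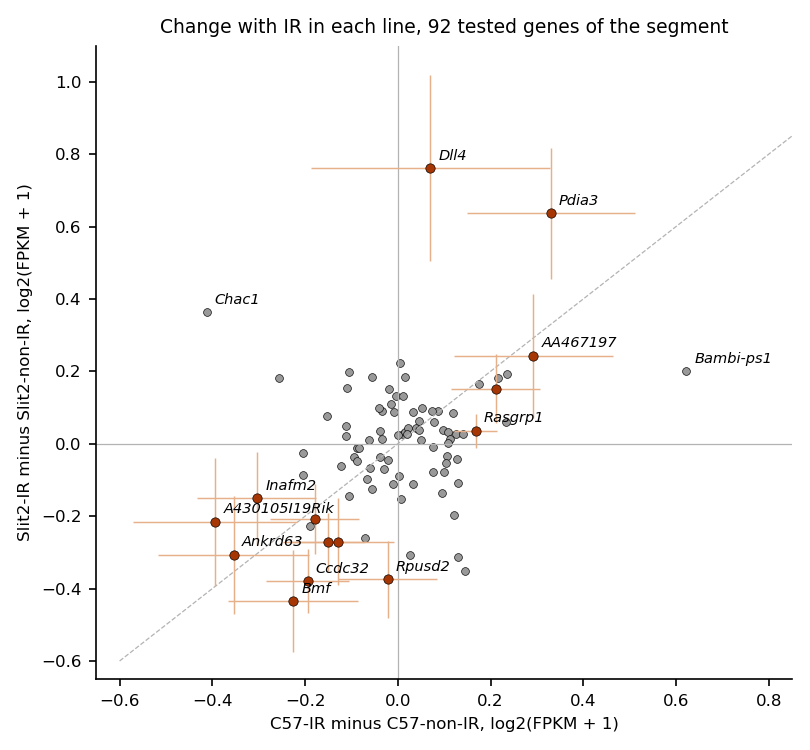
Change with IR in C57BL/6J (x) and Slit2-Tg hearts (y) on the log2(FPKM + 1) scale, 1 point for each of the 92 tested genes. The 14 genes with an unadjusted p under 0.05 over both lines are red with standard errors, the dashed line marks equal change, and all members lie between -0.43 and 0.76 on both axes.

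Ccdc32 (ENSMUSG00000039983, chromosome 2, 119017779 to 119029393, minus strand) gave 6.18, 6.51 and 6.18 FPKM in C57-non-IR, 5.93, 4.79 and 5.45 in C57-IR, 4.35, 4.74 and 5.07 in Slit2-non-IR, and 3.34, 3.41 and 3.42 in Slit2-IR hearts. Every IR heart was below every non-IR heart of its own line. The change was -0.29 ± 0.06 (SE; limma, adjusted p = 0.0325), with -0.19 ± 0.09 in C57BL/6J and -0.38 ± 0.09 in Slit2-Tg hearts, and the interaction test missed the threshold (adjusted p = 0.9998). It is also among the 11 of those 16 genes that were lower in Slit2-Tg. The call was lost when any 1 of 10 libraries was left out (adjusted p of 0.055 to 0.087) and held without C57-IR replicate 1 or Slit2-non-IR replicate 1.

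Pdia3, which forms disulfide bonds in new glycoproteins in the endoplasmic reticulum, had the largest positive change of the members without passing the adjusted threshold. It gave 34.5, 38.3 and 48.1 FPKM in C57-non-IR, 37.8, 55.0 and 61.5 in C57-IR, 38.9, 36.1 and 45.2 in Slit2-non-IR, and 65.3, 55.1 and 68.1 in Slit2-IR hearts. The Slit2-Tg groups did not overlap, and the C57BL/6J groups did. The change was 0.48 ± 0.13 (SE; limma, adjusted p = 0.0695), with 0.33 ± 0.18 in C57BL/6J and 0.64 ± 0.18 in Slit2-Tg hearts (adjusted p = 0.701 and 0.164). Without C57-IR replicate 1, the lowest C57-IR heart, its adjusted p over both lines was 0.0102 in limma. Leaving out any other single library gave 0.0627 to 0.171. A larger change was built into leaving out a heart that went against it.

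Dll4, the endothelial ligand of Notch receptors, gave 16.3, 10.9 and 11.1 FPKM in C57-non-IR, 10.6, 17.2 and 12.8 in C57-IR, 7.14, 8.59 and 12.4 in Slit2-non-IR, and 12.7, 23.1 and 14.4 in Slit2-IR hearts. All 3 Slit2-IR hearts were above all Slit2-non-IR hearts, while the C57BL/6J groups overlapped. The change over both lines was 0.42 ± 0.18 (SE; limma, adjusted p = 0.293) and the difference of the changes 0.69 ± 0.36 (adjusted p = 0.9998). The summed endothelial markers were 148.6 to 164.5, 111.4 to 173.8, 117.2 to 156.7 and 120.7 to 173.7 FPKM in the 4 groups, and their part in the values of Dll4 was not tested. Gm14207, a transcript on the opposite strand that overlaps Dll4 by 411 bases, had the smallest unadjusted p of the interaction among members (0.00756, limma, adjusted p = 0.9998), with changes of -0.26 in C57BL/6J and 0.18 in Slit2-Tg hearts.

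The largest falls without an adjusted p under 0.05 were in Ankrd63, Bmf and A430105I19Rik. Bmf, a BH3-only protein that promotes cell death, gave 1.16, 1.49 and 1.35 FPKM in C57-non-IR, 1.32, 0.936 and 0.762 in C57-IR, 0.853, 1.49 and 1.61 in Slit2-non-IR, and 0.816, 0.751 and 0.538 in Slit2-IR hearts, a change of -0.33 ± 0.10 (SE; limma, adjusted p = 0.108). The Slit2-Tg groups did not overlap, and without Slit2-non-IR replicate 1, the lowest of its group, the adjusted p of Bmf in limma was 0.0347. Leaving out any other single library gave 0.0525 to 0.228. Ankrd63 averaged 0.830 ± 0.181, 0.446 ± 0.282, 0.660 ± 0.280 and 0.340 ± 0.196 FPKM in the 4 groups (SD, n = 3 each), a change of -0.33 ± 0.12 (SE; limma, adjusted p = 0.167). A430105I19Rik gave 8.70, 9.53 and 9.03 FPKM in C57-non-IR and 9.50, 5.47 and 5.64 in C57-IR, where replicate 1 alone stayed at the level without IR, and 7.21, 8.18 and 10.4 in Slit2-non-IR and 7.67, 6.67 and 7.24 in Slit2-IR hearts. Its change was -0.30 ± 0.12 (SE; limma, adjusted p = 0.253), and without C57-IR replicate 1 it passed (adjusted p = 0.0229). Leaving out any other single library gave 0.217 to 0.495. For Bmf and A430105I19Rik a larger change was built into leaving out a heart that went against it. AA467197, within which the annotation places Mir147, had at most 20 reads in a library and a change of 0.27 ± 0.12 (SE; limma, adjusted p = 0.312). This gene passed the filter only through IR libraries, the group in which it was higher.

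**Figure D5:**
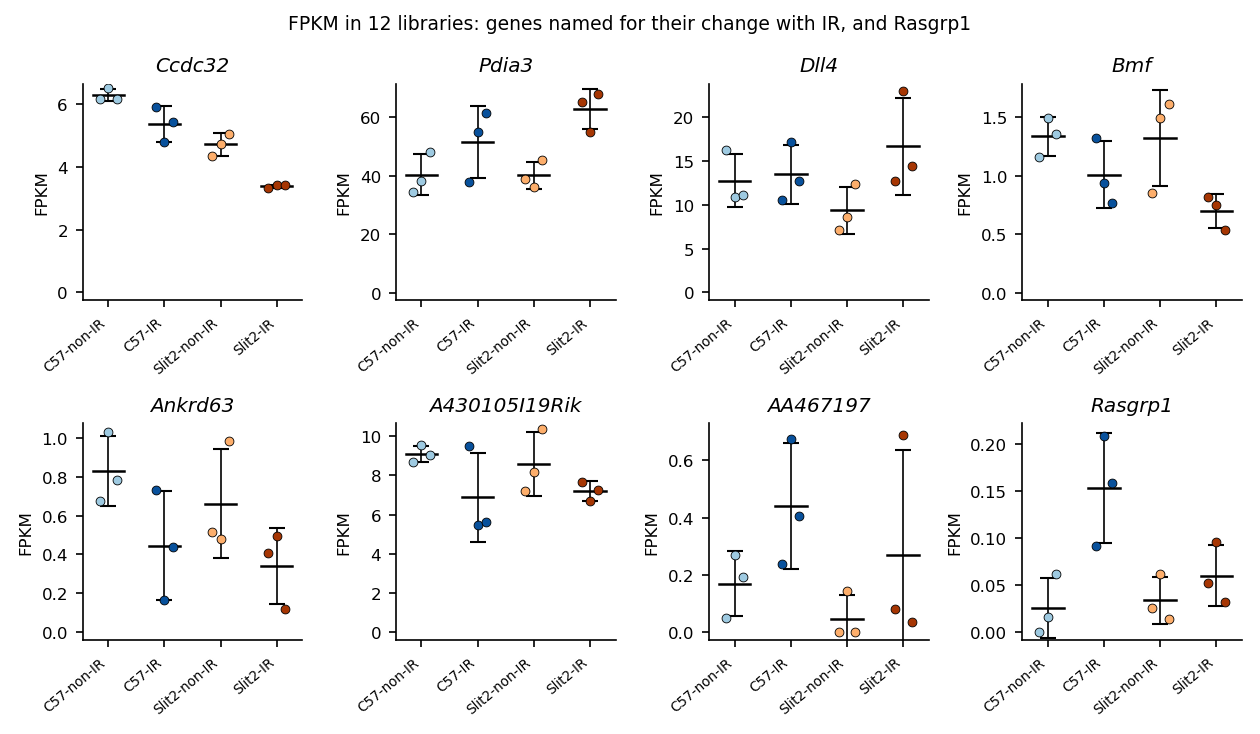
FPKM in each of the 12 libraries for the 7 genes named for their change with IR and for Rasgrp1 (points; bar, mean; whiskers, SD over 3 hearts). Ccdc32 is the gene with an adjusted p under 0.05, with Slit2-IR hearts from 3.34 to 3.42 FPKM, and Rasgrp1 stays under 0.21 FPKM in every library.

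Rasgrp1 (ENSMUSG00000027347, chromosome 2, 117279993 to 117343001, minus strand) was the lowest of the tested members, with 0.0684 FPKM on average and 0 to 23 reads in a library. It reached the level of the filter only in the 3 C57-IR libraries and Slit2-IR replicate 2, so it was tested only through IR libraries. It gave 0, 0.0165 and 0.0619 FPKM in C57-non-IR, 0.0921, 0.208 and 0.159 in C57-IR, 0.0258, 0.0619 and 0.0141 in Slit2-non-IR, and 0.0528, 0.0964 and 0.0321 in Slit2-IR hearts. All 3 C57-IR hearts lay above all C57-non-IR hearts, and the Slit2-Tg groups overlapped. The change was 0.17 ± 0.05 in C57BL/6J and 0.04 ± 0.05 in Slit2-Tg hearts (SE; limma, adjusted p = 0.194 and 0.864), and the difference of the changes was -0.13 ± 0.07 (unadjusted p = 0.0746, adjusted p = 0.9998). The 8 leukocyte markers summed to 108 to 235, 106 to 227, 140 to 209 and 104 to 180 FPKM in the 4 groups, and their part was not tested.

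Within a single line no member passed the adjusted threshold. In C57BL/6J hearts 0 of 92 did, against 0.459% of all tested genes, and 3 were higher and 4 lower at an unadjusted p under 0.05 in limma, against 4.55% and 4.42%. In Slit2-Tg hearts 0 of 92 did, against 0.525%, and 2 were higher and 6 lower at an unadjusted p under 0.05, against 6.15% and 5.07%. The interaction of genotype and IR had 0 adjusted calls among the members and 0% over all tested genes, and at an unadjusted p under 0.05 it had 2 members, Gm14207 and Rpusd2, against 1.86% of all genes. Over the 92 members the changes in both lines, which share no libraries, had a Pearson correlation of 0.343, against 0.744 over all tested genes, as a description. The mean change over both lines spanned -0.33 to 0.48 in the members and -1.85 to 6.91 in all tested genes. A narrower range lowers a correlation, so these values are not set on a like footing.

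By role, the counts at an unadjusted p under 0.05 over both lines were 1 higher and 0 lower of 15 genes of RAS, receptor and kinase signalling (Rasgrp1), 1 and 0 of 3 of vessel, adhesion and cell surface (Dll4), 1 and 2 of 14 of stress, translation and folding (Pdia3 higher, Bmf and Rpusd2 lower), 0 and 1 of 14 of mitochondria and metabolism (Adal), 0 and 0 of 8 of cell division and DNA repair, 0 and 2 of 14 of chromatin, transcription and RNA (Ccdc32 and Cdan1), 1 and 1 of 11 of membrane traffic (Snap23 higher, Stard9 lower) and 0 and 0 of 2 of muscle. The 11 tested members in none of these lists had 1 higher (AA467197) and 3 lower (Ankrd63, Inafm2 and A430105I19Rik). Of all tested genes, 7.93% were higher and 7.97% lower at this threshold. Sets of 2 to 15 genes are too small to be told apart from these shares, so the counts are a description. Rasgrp1 and AA467197 passed the filter only through IR libraries. The lists were set by textbook knowledge, and the placing of Ccdc32 with chromatin, transcription and RNA is uncertain. Cdan1 and Stard9 overlap on opposite strands by 15742 bases. The abundant genes Ehd4, Sord, Ivd, Srp14 and Zfp106 changed with IR by 0.21 ± 0.13, 0.04 ± 0.06, 0.04 ± 0.10, 0.05 ± 0.08 and -0.02 ± 0.09 (SE; limma, adjusted p of 0.480 or more). The 4 genes set apart by line had changes with IR of -0.06 for Ndufaf1, 0.07 for Casc4, -0.07 for Itpka and 0.01 for Gm14085 (limma, adjusted p of 0.472 or more).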

How the data were processed

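The authors deposited FPKM per gene and library with Ensembl identifiers, symbols, gene lengths and GRCm38 coordinates, made from paired-end reads mapped to the genome. The submitters' processing notes name HISAT2 and mm10. Which program counted reads, on which gene annotation and with which strand setting is not given in the sources used here. FPKM times gene length was a whole multiple of 1 step per library for 100% of values (tolerance 0.05 of a step), which gave the reads behind each value. The number of per-library columns left unused was 0. No 2 replicates of a group agreed within sampling noise (chi-square per degree of freedom of 8.26 to 52.4 over tested genes).

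The test was limma on log2(FPKM + 1) values, with trend, over all 4 groups and 15240 genes, two-sided, with Benjamini-Hochberg adjusted p over all of them. This scale understates the change of low genes. The fit was tested on simulated data. The members, the role lists and the tests were chosen with earlier results of these data known. Named genes were members whose 6 Slit2-Tg libraries lay all above or all below the 6 C57BL/6J libraries, members with an adjusted p under 0.05 with IR plus, as there were fewer than 6, the 3 largest rises and falls at an unadjusted p under 0.05, Rasgrp1, the 2 most abundant members of each role list, the 2 tested genes on each side of each edge, and Slit2; others were chosen after their values were seen. Same-numbered Slit2-non-IR and Slit2-IR libraries deviated together from their group means (correlations of 0.143 to 0.294), as did same-numbered C57-IR and Slit2-IR libraries (0.154 to 0.362), so these numbers pair them by the data alone, and the labels name no shared litter or day. Shared 75-base words were counted in GENCODE M21 transcripts. The alternatives were a pseudocount of 0.1, no filter and a stricter filter, TPM and upper quartile scaling, the replicate number as a block, a fit of each pair of groups alone, limma-voom on whole reads, a robust prior for the variance, other segment edges and leaving out each library. A count of reads carries counting error beside the spread between hearts. The fits ran in limma 3.58.1 under R 4.3.3, and the rest in pandas 2.3.3 under Python 3.11.15, with figures from matplotlib 3.10.9.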

Additional observations from a re-analysis of the deposited data

How the results depend on the processing

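The count of members with an adjusted p under 0.05 over both lines was 1 (Ccdc32). Its values under the alternatives are given without the share of all tested genes. TPM and upper quartile scaling each made it 2 (Adal added, lower). These scalings moved the median IR change of all tested genes from 0.00 to -0.05 and -0.03. Genes higher after IR went from 7815 of 15240 to 4820 and 5850. The part of this downward shift in the call of Adal was not tested. The count of called members was 0 to 3 when 1 library was left out, with 3 without C57-IR replicate 1 (Pdia3 and A430105I19Rik added). With the replicate number as a block it was 2, as Pdia3 was added (limma, adjusted p = 0.0209). In the C57BL/6J groups 2 of 6 libraries correlated best with the library of their own number, with same-numbered correlations of 0.083 to 0.295, so the numbers do not pair them. The block changed no other count. In C57BL/6J hearts alone the count was 0 to 1 when 1 library was left out (A430105I19Rik without C57-IR replicate 1), and it stayed 0 for Slit2-Tg hearts and for the interaction under all alternatives run. The named IR genes kept their direction under all alternatives run. The members whose libraries did not overlap between lines were 4, and 2 with the stricter filter, which removed Itpka and Gm14085 for low reads. They were 4 to 8 when 1 library was left out, with 7 without C57-non-IR replicate 1, 7 without Slit2-IR replicate 1 and 8 without Slit2-non-IR replicate 2. Ndufaf1, Casc4, Itpka and Gm14085 were among them each time. This, and a count of at least 4, was fixed in advance, because leaving out a library cannot make a gene overlap that did not. Fewer libraries overlap less often in any gene: the share of all tested genes was 0.479% to 0.794% in these settings, with 0.551%, 0.525% and 0.656% in the 3 just named, against 0.413%. TPM scaling gave 6, 5 higher and 1 lower (0.873% of all tested genes), and moved the median difference of all genes between lines by 0.08. Without Slit2-IR replicate 1 and Slit2-non-IR replicate 2 together, an alternative added after the data were seen, they were 11, against 0.820% of all tested genes. Segment edges 0.5 Mb narrower or 1 Mb wider gave 4. With a pseudocount of 0.1 the differences of Itpka and Gm14085 between lines were 1.02 and 2.84 in place of 0.26 and 0.75. Genes under 1 FPKM, 25 of the 92, rest on few reads, and the transgene could not be checked.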
